A study of Bos taurus with 15 samples.

Results

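The gut homing set held 10 genes, 5 chemokines and the receptor of each: *CCL25* with *CCR9*, *CCL28* with *CCR10*, *CCL20* with *CCR6*, *CXCL13* with *CXCR5* and *CCL21* with *CCR7*. Each was found by its symbol among the 27270 genes of the count tables. Chemokines are small secreted proteins that lymphocytes follow through receptors on their surface, so that tissue which makes a chemokine can draw in or hold the cells that carry its receptor. The small intestinal epithelium is known for CCL25, which CCR9 binds, while CCL28 of mucosal epithelium is bound by CCR10 on antibody-secreting cells. CCL20 is known from epithelium over lymphoid follicles and from inflamed mucosa and is bound by CCR6, whereas CXCL13 with CXCR5 and CCL21 with CCR7 lay out the B cell and T cell areas of lymphoid tissue, and CCL21 is also made by lymphatic vessels.

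The data were droplet single-cell RNA libraries of Holstein cattle, 11 from newborn (NB) calves and 4 from an adult (AD) cow, with 1 library for each tissue and stage. The NB libraries came from reticulum and omasum (both forestomach chambers), abomasum (the glandular stomach), the 3 parts of the small intestine (duodenum, jejunum, ileum), the 3 parts of the large intestine (cecum, colon, rectum), liver and salivary (parotid) gland, and the AD libraries from duodenum, jejunum, cecum and colon. All 4 AD libraries were taken from a single lactating animal, and 3 calves were sampled at the NB stage and which calf gave which library is not given in the sources used here. Outer muscle was removed from the gut samples of both stages, NB gut was stripped with EDTA and trypsin before enzymes were added while AD gut was not, and the enzyme kit of AD jejunum and colon differed from that of AD duodenum and cecum. Stage, animal and dissociation therefore cannot be told apart, and with 1 library a group no test between groups was possible.

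After filters on genes, unique molecular identifiers (UMIs, each counting 1 captured transcript) and mitochondrial share, 119798 of 172405 barcodes were kept. Libraries held 17707625 to 129458578 UMIs, with a median of 3541 to 8838 UMIs a kept barcode. The highest AD median was 3889 and the lowest NB median 4344, so AD barcodes were shallower. Any pair of libraries shared 2 to 38 barcode sequences, at most 0.497% of the smaller library.

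Barcodes were placed in classes by 1 defining marker and the absence of the others: *EPCAM* or *KRT14* (epithelial, 26059 barcodes), *PECAM1* (endothelial, 7928), *COL1A2* (stromal, 8818), *CD3E* (T cell, 31521) and *MS4A1* (B cell, 6614). A further class with at least 2 UMIs of *MZB1* and none of those markers stood for plasma cells (1187 barcodes), and 31.4% of kept barcodes stayed outside all classes. Epithelial, endothelial and stromal barcodes also had to hold no UMI of *PTPRC*, while T cell, B cell and plasma cell barcodes could hold it. A level is the sum of a gene's UMIs over the barcodes of a class in a library, divided by all UMIs of that class and given as CPM (the usual depth-scaled count), with an exact Poisson 95% interval that covers counting error only. Levels were read only where a class had at least 50 barcodes in a library, which left 65 combinations of class and library. They were compared between classes and libraries. Between genes they were ranked only to choose examples from the lists of related genes given last.

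The other markers of each class were checked before any level was read. All 5 further T cell markers were above 0 in *CD3E* barcodes of every library used, but their summed level was 404 to 638 CPM in NB intestine and 1397 to 1761 CPM in AD, and 93.2 to 98.1% of AD *CD3E* barcodes carried a second T cell marker against 59.3 to 92.7% in NB. *CD3E* barcodes of NB jejunum also held 2731 CPM of 5 myeloid genes, and AD *CD3E* barcodes held 1432 to 4842 CPM of 4 plasma cell genes, against at most 394 CPM in NB. Plasma cell genes, mostly *JCHAIN*, which links antibody chains, were higher still in AD *MS4A1* barcodes, at 17429 to 44026 CPM.

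In 3 combinations the check was taken to go against the label. These are included in the class means, the likenesses and, unless left out by name, the counts below. *PECAM1* barcodes of AD duodenum held 58.2 CPM of the other endothelial markers, against 2944 to 3946 CPM in NB intestine, and 176520 CPM of plasma cell genes, and only 4.05% of them carried a second endothelial marker. *PECAM1* barcodes of AD jejunum held 1724 CPM of endothelial and 68311 CPM of plasma cell genes, with a second endothelial marker in 36.0%. *MS4A1* barcodes of NB cecum held 137 CPM of the other B cell markers, 3 of 4 of them above 0, with a second B cell marker in 39.2%, against 990 to 1443 CPM in NB ileum, colon and salivary gland and in AD duodenum, cecum and colon, 613 CPM in AD jejunum and 270 CPM in liver. Other classes were mixed too but were not among the 3. *PECAM1* barcodes of NB liver had 954 CPM of endothelial and 5952 CPM of myeloid genes, with a second endothelial marker in 38.7%. *MZB1* barcodes of NB ileum and colon had 1553 and 1250 CPM of B cell markers, beside 1295 and 1427 CPM in *MS4A1* barcodes there. Their plasma cell genes, at 18911 and 27226 CPM, lay below the 138314 to 185927 CPM of AD *MZB1* barcodes.

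Every chemokine of the set had its highest mean level in an epithelial, vessel or stromal class and every receptor in a lymphocyte class. Only the lymphocyte classes could hold *PTPRC*, and with *PTPRC* allowed in every class all 10 members kept the same leading class. *CCL25* averaged 213 CPM over the 13 libraries with an epithelial class, against 1.13 to 4.65 CPM in the other classes, and 92.1% of its 50206 UMIs were in epithelial barcodes. *CCL28* (919 UMIs) was likewise 79.5% epithelial, with a mean of 7.44 CPM there and at most 0.39 CPM elsewhere. *CCL21*, the most counted member with 140035 UMIs, averaged 1129 CPM in *PECAM1* barcodes, and *CXCL13* (4563 UMIs) averaged 40.5 CPM in *COL1A2* barcodes. Among the receptors, *CCR9* was led by *CD3E* barcodes (58.2 CPM, 79.1% of 14142 UMIs), *CCR10* by *MZB1* barcodes (131 CPM, 42.2% of 2918 UMIs) and *CXCR5* by *MS4A1* barcodes (63.3 CPM, 50.7% of 4839 UMIs). The remaining members were more spread. *CCR7* averaged 79.2 CPM in *MS4A1* and 63.7 CPM in *CD3E* barcodes, *CCR6* 5.26 and 3.77 CPM in the same classes, and *CCL20* 16.4 CPM in epithelial and 5.55 CPM in *CD3E* barcodes. The classes left out much of some members: 53.3% of the 1627 *CCR6* UMIs, 45.7% of *CCL21*, 45.1% of the 18198 *CCR7* UMIs and 35.0% of *CXCL13* lay in barcodes outside every class.

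**Figure D1:**
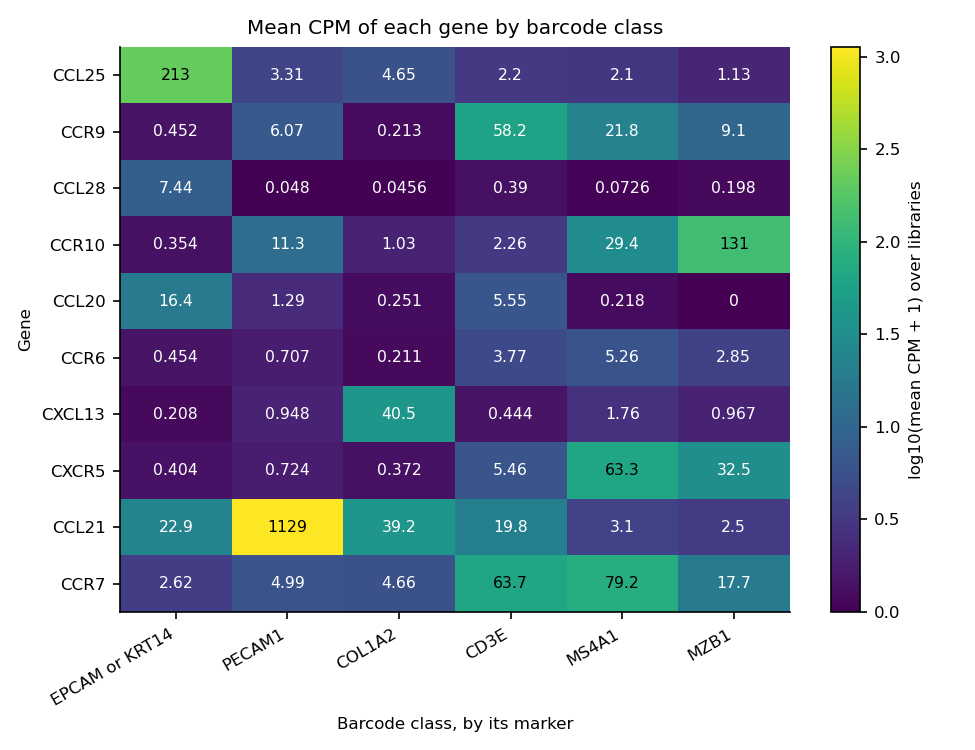
Mean CPM of each of the 10 genes in each class, averaged with equal weight over the libraries that have at least 50 barcodes of the class. Colour is log10 of the mean plus 1 and the number in a cell is the mean CPM. Chemokines peak in the epithelial, *PECAM1* or *COL1A2* class and receptors in the *CD3E*, *MS4A1* or *MZB1* class.

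Stages could be set side by side in 14 combinations of tissue and class, and a gene was called where AD and NB differed at least 2-fold with separate Poisson intervals, among genes with at least 10 CPM at either stage. The members made 46 such pairs, of which 12 were higher and 24 lower in AD. In the main classes of each gene, with *MZB1* barcodes taken for *CCR10* only, 7 of 28 were higher and 11 lower. Without the 3 combinations that went against their label, a choice made after the values were seen, 6 pairs were higher and 20 lower. With a second class marker required of each barcode, also chosen afterwards, 4 were higher and 18 lower. That rule left 3 *PECAM1* barcodes in AD duodenum and 40 in AD jejunum. The number of pairs tested and the share of all genes called are not given for these changed settings, so a shift between higher and lower cannot be read from them.

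These counts have to be read against all genes called in the same way, and each rests on 1 to 6 members. In epithelial barcodes 2 of 3 members were called in jejunum where 29.8% of all genes were, 4 of 4 in cecum against 19.5%, and 0 of 2 in colon against 32.1%. In *CD3E* barcodes 4 of 6 members were called in duodenum against 21.5% of genes, 2 of 2 in jejunum against 21.7%, 3 of 4 in cecum against 28.7%, and 2 of 2 in colon against 28.5%. The share of members called was above that of genes at large in all 4 *CD3E* comparisons, on small numbers. The calls in *CD3E* barcodes included *CCL25* in duodenum and *CCL21* in duodenum, jejunum and cecum, chemokines led by other classes. Those in epithelial barcodes of cecum included *CCL21* and *CCR7*, also led by other classes. With at least 2 UMIs of the marker their NB levels there fell from 104 and 11.5 CPM to 7.90 and 1.86 CPM, and both calls were lost. The members were chosen with earlier results of these data known, so the shares give no independent support. In *MS4A1* barcodes 2 of 4 were called in cecum, where the NB class went against its label, against 36.9% and 3 of 4 in colon against 21.3%, in *MZB1* barcodes 3 of 3 in cecum against 41.1% and 2 of 3 in colon against 30.4%, and in *COL1A2* barcodes of colon 1 of 1 against 15.2%. In *PECAM1* barcodes, whose AD classes both went against their label, all 4 were called in duodenum, where 68.3% of genes were, and all 4 in jejunum, against 25.4%. Over all genes tested the median log2 difference between AD and NB ran from −1.27 in *PECAM1* barcodes of duodenum to 0.39 in epithelial barcodes of colon, and was −0.95 and −0.86 in *MZB1* barcodes of cecum and colon.

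**Figure D2:**
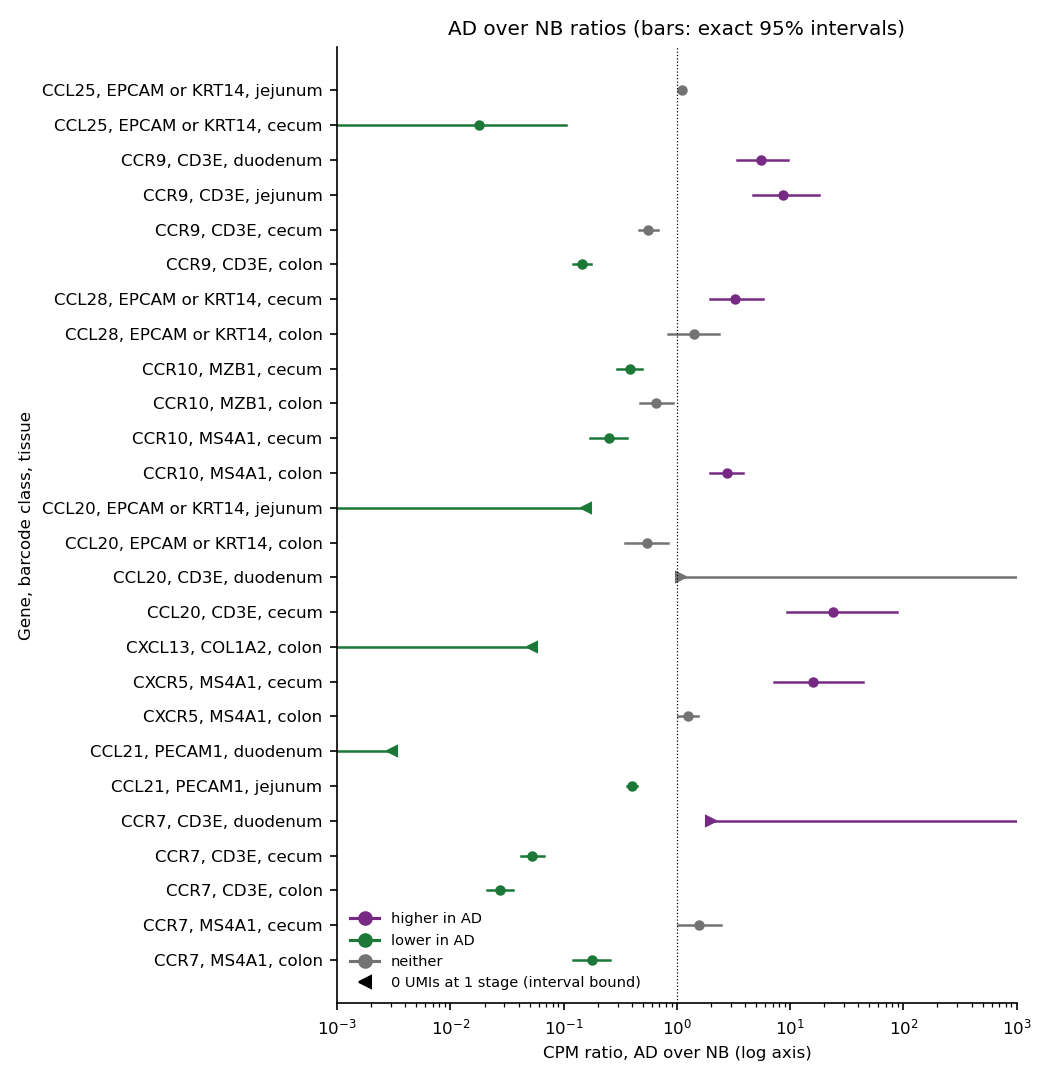
CPM at AD over CPM at NB (log axis) for each gene but *CCR6*, in duodenum, jejunum, cecum and colon, with exact 95% intervals. Only pairs with at least 10 CPM at either stage are drawn. *CXCR5* is drawn in *MS4A1* barcodes only, and *CCR7* in *CD3E* and *MS4A1* barcodes only. Purple is called higher and green lower in AD, grey neither, and triangles mark interval bounds where a stage had 0 UMIs. *CCR9* in *CD3E* barcodes lies above 1 in duodenum and jejunum and below 1 in cecum and colon, and *CCR7* in *CD3E* barcodes lies below 1 in cecum and colon.

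*CCL25*, the epithelial ligand of CCR9, marked the small intestine at both stages. Its epithelial level was 903 CPM in NB duodenum, 793 CPM in NB jejunum, 158 CPM in NB ileum and 881 CPM in AD jejunum. In the large intestine it was 18.7 CPM in NB cecum, 5.14 CPM in NB colon and 1.2 CPM in NB rectum, with 1 UMI each in AD cecum and AD colon. Reticulum, omasum and abomasum were at 0.23 to 0.81 CPM and liver at 4.43 CPM. The NB small and large intestinal libraries did not overlap, and the intervals of NB duodenum (893 to 912) and AD jejunum (839 to 924) did.

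Along the small intestine the ileum was the low end of *CCL25*, with an interval of 147 to 170 CPM far from jejunum. After every barcode was thinned to 1000 UMIs to level depth, 42.7% of epithelial barcodes of NB duodenum, 40.2% of NB jejunum, 38.9% of AD jejunum and 11.1% of NB ileum still had a *CCL25* UMI (78.8, 67.1, 70.6 and 39.4% unthinned). For comparison, *CD3E* barcodes of NB jejunum, which are not known to make it, stood at 1.08% thinned and 1.61% unthinned, with a median of 3628 UMIs a barcode against 12277 in epithelial barcodes. AD duodenum had only 27 epithelial barcodes, too few for a level, and those held 45 *CCL25* UMIs. Low *CCL25* counts also turned up outside epithelium in the richest library, at 21.7 CPM in *PECAM1*, 31.4 CPM in *COL1A2* and 15.1 CPM in *CD3E* barcodes of NB duodenum.

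Between stages the jejunal epithelial level of *CCL25* was close, with an AD/NB ratio of 1.11 (95% interval 1.05 to 1.17) that was not called. In cecum it was called lower in AD by 55.4-fold, from 47 UMIs in 21 NB barcodes to 1 UMI in AD. The genes whose levels followed *CCL25* most closely over the 65 combinations were *OTC* (Pearson r = 0.96 on log2(CPM + 5)), *MS4A18* (r = 0.94) and *CPS1* (r = 0.94), of which *OTC* and *CPS1* are urea cycle enzymes also known from small intestinal epithelium. Combinations of the same library share its depth and free RNA, so these and the correlations below describe the libraries and carry no p-value.

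**Figure D3:**
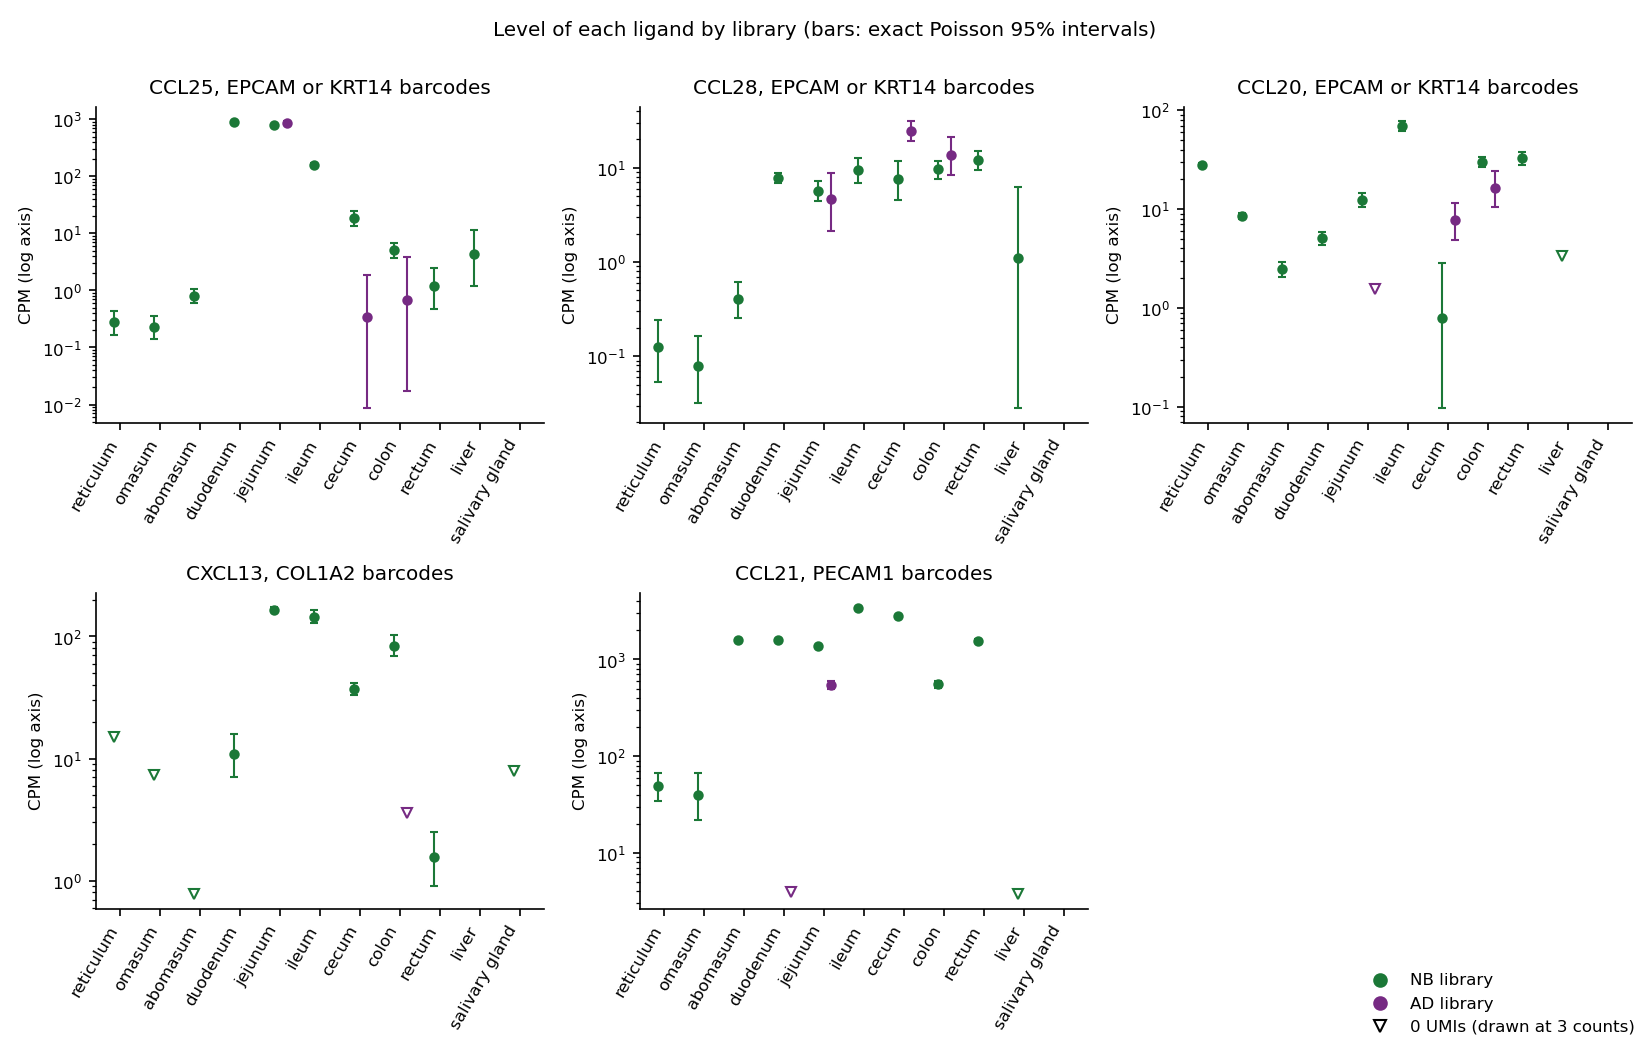
CPM of the 5 chemokines by library in the leading class of each (log axis), NB in green and AD in purple in the order of the tract, with exact Poisson 95% intervals and open triangles at 3 counts where there were 0 UMIs. Libraries with fewer than 50 barcodes of the class are not drawn. *CCL25* is at 158 CPM or more in duodenum, jejunum and ileum and at most 18.7 CPM elsewhere, *CXCL13* and *CCL21* peak in NB intestine, and *CCL28* runs from 4.66 to 24.6 CPM across the intestine.

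*CCR9*, the receptor that directs lymphocytes to the small intestine, was, among *CD3E* barcodes, highest in the AD small intestine. These stood at 333 CPM in AD duodenum (7484 UMIs in 3535 of 6140 barcodes) and 113 CPM in AD jejunum, against 23.3 CPM in AD cecum and 9.26 CPM in AD colon, and no pair of these 4 intervals overlapped. NB libraries showed no such order: *CD3E* barcodes had 63.7 CPM in colon, 60.4 CPM in duodenum, 42.0 CPM in cecum, 33.2 CPM in salivary gland, 31.5 CPM in rectum, 23.5 CPM in ileum, 13.0 CPM in jejunum, 8.81 CPM in abomasum and 1.97 CPM in liver. The duodenal value rested on 16 UMIs in 62 barcodes, the ranges of small and large NB intestine overlapped, and liver *CD3E* barcodes were lowest although they numbered 4092.

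*CCR9* in *CD3E* barcodes went opposite ways between stages in the small and large intestine. AD over NB was 5.50 (3.39 to 9.64) in duodenum and 8.65 (4.69 to 18.1) in jejunum, both called higher. In colon it was 0.145 (0.122 to 0.174), 6.88-fold lower in AD and called, and in cecum 0.555 (0.460 to 0.675), which falls short of 2-fold but was called lower in AD with a second T cell marker. T cell markers were higher in AD *CD3E* barcodes of all 4 tissues, as given above, and their part in the differences was not tested. The NB jejunal value rested on 10 UMIs in 8 of 186 barcodes. Barcodes outside every class held 84.5% of the *CCR9* UMIs of NB jejunum and 60% of those of NB duodenum, against 14.9 and 9.80% at AD. Over all libraries of a stage they held 41.1% in NB and 10.8% in AD, and their part in the ratios was not tested. Requiring a second T cell marker left 9.4 against 121 CPM in jejunum, 47.0 against 23.3 CPM in cecum and 64.8 against 9.3 CPM in colon (NB against AD), and reduced NB duodenum to 40 barcodes at 81.5 CPM beside 341 CPM in AD.

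Thinned to 1000 UMIs, 27.5% of *CD3E* barcodes of AD duodenum (26.3 to 28.6; 57.6% unthinned), 10.5% of AD jejunum, 1.70% of AD cecum and 0.60% of AD colon had a *CCR9* UMI. In NB these shares were 4.92% in duodenum, 1.62% in jejunum, 3.85% in cecum and 7.11% in colon. Epithelial barcodes, which are not known to carry the receptor, stood at 0.54% in AD jejunum (1.60% unthinned) and 0% in AD cecum and colon, at medians of 9216 to 13859 UMIs.

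Both main T cell divisions carried *CCR9*. *CD3E* barcodes with *CD4* and no *CD8A* had 376 CPM and those with *CD8A* and no *CD4* had 285 CPM in AD duodenum, and 213 and 56.2 CPM in AD jejunum. In NB cecum and colon the divisions were level, at 38.6 and 39.4 CPM and at 41.4 and 44.0 CPM. The whole *CD3E* class of NB colon stood above both, at 63.7 CPM, so *CCR9* was higher there in barcodes outside the divisions. In NB colon, 36 *CD3E* barcodes held *RAG1*, the recombinase of developing lymphocytes, and 23 of them also held *CCR9*. That is 20.4% of the *CCR9* barcodes there against 2.35% of the others, whereas none of the 118 *CCR7* barcodes held *RAG1*. *RAG1* was chosen after values were seen, and of the other 12 libraries with a *CD3E* level only NB cecum had a *RAG1* barcode, 1.

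Outside *CD3E* barcodes, *CCR9* counts separated the AD small intestine again. *MS4A1* barcodes had 115 CPM in AD jejunum (279 UMIs; 102 to 129), overlapping the *CD3E* level there (108 to 118), and 73.1 CPM in AD duodenum, and at most 2.96 CPM in each of the other 7 libraries. *MZB1* barcodes had 32.0 CPM in AD duodenum and 29.6 CPM in AD jejunum, with 0 UMIs in AD cecum and AD colon. The *PECAM1* barcodes of AD duodenum, rich in plasma cell genes, had 50.3 CPM, and epithelial barcodes of AD jejunum 4.15 CPM. All kept barcodes together had 217 and 53.3 CPM in AD duodenum and jejunum, and 17.5 and 7.88 CPM in AD cecum and colon. The part of T cell RNA in the *MS4A1* and *MZB1* levels was not tested. No *MS4A1* or *MZB1* class reached 50 barcodes in NB duodenum or jejunum, so the stages cannot be compared there. The genes most like *CCR9* over the 65 combinations were *CXCR3* (r = 0.81), *GFI1* (r = 0.80) and *RINL* (r = 0.78); *CXCR3* is a receptor of activated T cells.

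*CCL28*, the mucosal epithelial ligand of CCR10, was present along the whole intestine at low counts. Epithelial levels in NB were 7.76 CPM in duodenum, 5.69 CPM in jejunum, 9.38 CPM in ileum, 7.56 CPM in cecum, 9.60 CPM in colon and 11.99 CPM in rectum. AD levels were 4.66 CPM in jejunum, 24.6 CPM in cecum and 13.7 CPM in colon, and reticulum, omasum and abomasum lay at 0.08 to 0.41 CPM. Each intestinal level overlapped its neighbour in order, but the ends were apart: the interval of AD cecum (19.3 to 31.0) lay above every NB intestinal interval, and that of NB rectum (9.35 to 15.2) above NB duodenum (6.90 to 8.71) and NB jejunum (4.43 to 7.21). In cecum *CCL28* was 3.26-fold higher in AD (1.95 to 5.72; 73 against 19 UMIs), while in colon the ratio was 1.43 (0.831 to 2.35) and not called. The salivary library had 17 epithelial barcodes, in which 9 UMIs of *CCL28* were counted. *CDX2* (r = 0.96) and *CDX1* (r = 0.96), transcription factors of intestinal epithelium, and the serotonin receptor *HTR4* (r = 0.95) were most like it.

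*CCR10*, the receptor of antibody-secreting cells, was higher in *MZB1* than in *MS4A1* barcodes in every library where both gave a level. *MZB1* barcodes had 284 CPM in NB cecum, 143 CPM in NB colon and 110 CPM in NB ileum, and in AD 108 CPM in cecum, 99.6 CPM in jejunum, 93.5 CPM in colon and 78.7 CPM in duodenum. NB cecum stood above the rest and each of the others overlapped its neighbour, in small and large intestine alike. NB liver fell short of the barcode limit with 43 *MZB1* barcodes, which held 57 *CCR10* UMIs.

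In *MS4A1* barcodes *CCR10* was 61.3 CPM in AD jejunum, 47.4 CPM in AD colon, 27.8 CPM in AD duodenum and 18.8 CPM in AD cecum, and in NB 75.3 CPM in cecum, 17.3 CPM in colon, 10.4 CPM in liver, 5.96 CPM in ileum and 0 in salivary gland. In the NB cecum the 75 UMIs came from 9 of 74 barcodes of the class whose B cell markers were low. These barcodes also held 8227 CPM of plasma cell genes, and salivary *MS4A1* barcodes, where *CCR10* was 0 of 372 barcodes, held 173 CPM. The part of plasma cell RNA in these levels was not tested. *CD3E* barcodes carried little *CCR10*, with a maximum of 12.2 CPM in NB liver (155 UMIs in 140 barcodes), where the next library stood at 4.04 CPM.

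Stage calls for *CCR10* depended on class. It was 4.01-fold lower in AD in *MS4A1* barcodes of cecum, the comparison that rests on the doubtful NB class, and 2.74-fold higher (1.97 to 3.80) in those of colon, where plasma cell genes were also higher in AD (24958 against 3089 CPM) and their part was not tested. In *MZB1* barcodes it was called 2.62-fold lower in AD cecum. Plasma cell genes were higher in that AD class (163585 against 57845 CPM), and their part was not tested. The call was lost without genes above 1% of UMIs (361 CPM in NB and 275 CPM in AD). It was also lost with TMM scaling (212 and 154 CPM) and with median-of-ratios scaling (214 and 160 CPM). The colon *MZB1* ratio of 0.653 was not called. In *PECAM1* barcodes, whose AD classes went against their label, *CCR10* was called higher in AD. Levels were 92.6 CPM (70 UMIs) against 0 UMIs in duodenum and 31.1 against 0.07 CPM in jejunum. Both calls were lost with a second endothelial marker, which left 3 and 40 AD barcodes. *TNFRSF13B* (r = 0.97) and *TNFRSF17* (r = 0.95), receptors of B cell survival factors, and the unnamed gene ENSBTAG00000051010 (r = 0.94) were most like *CCR10*.

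**Figure D4:**
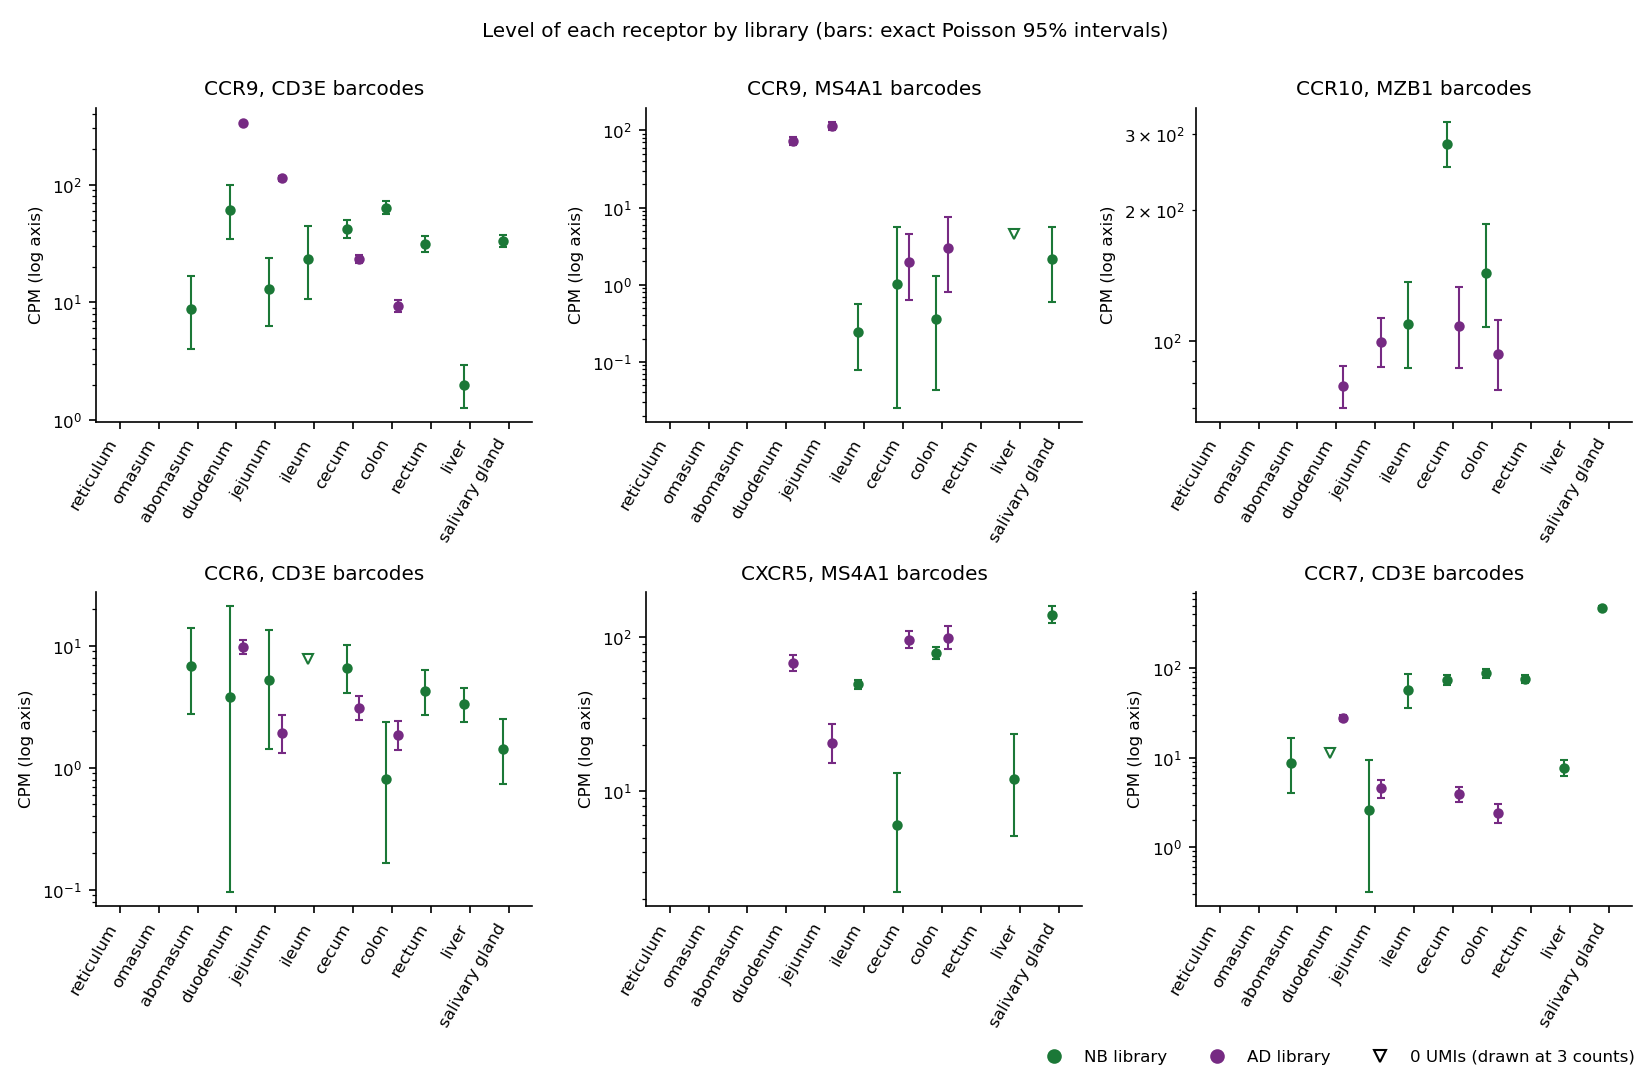
CPM of the 5 receptors by library in the lymphocyte classes named above each panel (log axis), NB in green and AD in purple in the order of the tract, with exact Poisson 95% intervals and open triangles at 3 counts where there were 0 UMIs. Among *CD3E* barcodes *CCR9* is highest in AD duodenum and jejunum, *CCR7* is highest in the NB salivary gland, and *CCR6* lies below 11 CPM throughout.

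*CCL20*, a chemokine of follicle-covering and inflamed epithelium, was counted in different classes by tissue and stage. Of its UMIs in NB libraries 72.0% lay in epithelial barcodes, and of those in AD libraries 92.1% lay in *CD3E* barcodes. The make-up of the libraries differed too, and its part in these shares was not tested. Epithelial barcodes held 94.2 and 95.6% of all UMIs in reticulum and omasum, which gave 1788 and 749 of the *CCL20* UMIs and have no AD library, while in AD libraries *CD3E* barcodes held 33.7 to 74.3% and epithelial barcodes 0.470 to 7.78% of all UMIs. In the NB libraries of the 4 tissues that have an AD library, epithelial barcodes held 191 of 487 *CCL20* UMIs in duodenum, 149 of 469 in jejunum, 2 of 77 in cecum and 263 of 297 in colon. By level, AD colon was higher in epithelial than in *CD3E* barcodes. NB epithelial levels were 69.4 CPM in ileum, 32.6 CPM in rectum, 30.1 CPM in colon, 27.9 CPM in reticulum, 12.3 CPM in jejunum, 8.52 CPM in omasum, 5.08 CPM in duodenum, 2.45 CPM in abomasum and 0.80 CPM in cecum, with 0 UMIs in liver. The ileum stood apart from all others, and the counts were concentrated: its 333 UMIs sat in 42 of 401 barcodes, and the 139 of abomasum in 7 of 4206. AD epithelial levels were 16.5 CPM in colon and 7.77 CPM in cecum, with 0 UMIs in 187 jejunal barcodes.

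In *CD3E* barcodes *CCL20* was 30.1 CPM in AD cecum (793 UMIs in 129 of 6905 barcodes), 15.2 CPM in AD duodenum, 6.24 CPM in AD jejunum and 3.84 CPM in AD colon. Among NB libraries it was 14.8 CPM in rectum, from 9 barcodes, and at most 1.26 CPM in the other 8, with 0 UMIs in 6 of them. Most of the AD counts were in *CD4* barcodes without *CD8A*: 170 CPM in cecum, 25.0 CPM in duodenum, 19.9 CPM in colon and 18.1 CPM in jejunum, against 22.1, 0, 0.08 and 0.74 CPM in *CD8A* barcodes without *CD4*. NB rectum had the opposite order, 0.73 against 98.4 CPM, on 4 *CD8A* barcodes with a UMI.

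*CCL20* in *CD3E* barcodes was called 23.9-fold higher in AD cecum (9.29 to 87.9). In duodenum 343 UMIs at AD stood against 0 in 62 NB barcodes, and the fold against 3 counts there, 1.35, falls short of a call. Epithelial *CCL20* of jejunum was called lower in AD, by 7.91-fold against 3 counts, and in colon the ratio of 0.548 (0.345 to 0.833) was not called. In colon the gene was called lower in AD under 4 alternatives: 98.7 CPM in NB and 11.95 CPM in AD without the upper limit on genes and UMIs, 31.5 and 11.9 CPM with TMM scaling, 30.9 and 12.6 CPM with median-of-ratios scaling, and 25.1 and 7.81 CPM with every barcode that held the marker. The jejunal call was lost without the upper limit, at 9.38 CPM in NB and 1.87 CPM in AD.

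The *CCL20* barcodes of AD cecum were described further with genes picked after values were seen. *IL17A*, the cytokine of type 17 T cells, was found in 31 of the 129 *CCL20* barcodes (24.0%) and in 0.68% of the other *CD3E* barcodes, at medians of 3167 and 3550 UMIs. In the other AD libraries it was found in 5 of 123 in duodenum (4.07% against 0.63%), 2 of 53 in colon (3.77% against 0.35%) and 1 of 29 in jejunum (3.45% against 0.06%). *CCR6*, the receptor of CCL20 itself, was found in 10 of the 129 of AD cecum (7.75% against 0.99%), and in AD duodenum in 15 of 123 (12.2% against 3.31%). In AD jejunum and AD colon 1 *CCL20* barcode each held it. Outside the classes, barcodes with *CD14* or *CSF1R*, markers of monocytes and macrophages, held 203 of 273 *CCL20* UMIs in NB duodenum and 228 of 466 in NB rectum. *ASCL2* (r = 0.65), *OVOL1* (r = 0.64) and *ATOH1* (r = 0.62) were most like *CCL20*, the lowest values for any member.

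*CCR6* was the receptor with the fewest UMIs. *CD3E* barcodes had 9.82 CPM in AD duodenum (221 UMIs in 214 barcodes; 8.57 to 11.2), apart from the other AD libraries at 1.85 to 3.12 CPM, and NB libraries lay between 0 CPM in ileum and 6.85 CPM in abomasum. *MS4A1* barcodes had 10.2 CPM in AD cecum, 8.89 CPM in AD colon, 7.08 CPM in AD duodenum, 2.88 CPM in AD jejunum and 2.37 to 5.99 CPM in NB, where cecum (3.01 CPM) is the class with low B cell markers. Ordered over both stages, each level overlapped the next in both classes, but levels further apart did not all overlap. In colon the *MS4A1* level was 3.57-fold higher in AD (8.89 CPM, 4.59 to 15.5, against 2.49 CPM, 1.36 to 4.18), on 12 and 14 UMIs. It stayed under the 10 CPM that a call required, and it was called higher in AD with at least 2 UMIs of the marker (10.2 against 2.14 CPM), without genes above 1% of UMIs (10.5 against 2.73 CPM) and with no filter on low values. In AD, *CD4* barcodes without *CD8A* had 3.74 to 15.5 CPM and *CD8A* barcodes without *CD4* had 0.55 to 2.26 CPM. Barcodes with the macrophage marker *CSF1R* outside the classes held 116 of 166 unplaced *CCR6* UMIs in liver and 87 of 103 in NB jejunum. The genes most like it were *SPOCK2* (r = 0.82), *CYFIP2* (r = 0.80) and *MAP4K1* (r = 0.80).

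*CXCL13*, the chemokine that gathers B cells into follicles, was highest among the classes in *COL1A2* barcodes of the NB intestine, which held 1979 of its 2211 UMIs in jejunum and 340 of 358 in cecum but 295 of 975 in ileum and 103 of 547 in colon. *COL1A2* barcodes had 166 CPM in NB jejunum, 146 CPM in ileum, 84.3 CPM in colon, 37.1 CPM in cecum, 10.9 CPM in duodenum and 1.55 CPM in rectum, and 0 UMIs in reticulum, omasum, abomasum and salivary gland. Jejunum and ileum overlapped, and each following intestinal level was apart from the next. Few barcodes carried it: 133 of 2934 in jejunum held 1979 UMIs and 21 of 418 in ileum held 295.

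AD colon had 0 *CXCL13* UMIs in 123 *COL1A2* barcodes, so that the gene was called lower in AD. The fold, 23.7, is a guide and not a bound. In NB 16 of 186 barcodes held a UMI, and 0 UMIs in AD leave an exact upper limit of 4.37 CPM. The remaining AD tissues had 1 to 20 *COL1A2* barcodes and no *CXCL13* UMI, too few for a level. Outside the classes *CSF1R* barcodes held 507 of 604 *CXCL13* UMIs in NB ileum, 227 of 350 in NB colon and 245 of 279 in liver, whereas in NB jejunum 173 of 212 were in barcodes with the collagen gene *COL3A1*. *DKK2* (r = 0.81), *CRHBP* (r = 0.81) and the unnamed gene ENSBTAG00000051317 (r = 0.78) were most like it.

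*CXCR5*, the follicular receptor of B cells, was present in *MS4A1* barcodes at both stages. Levels were 140 CPM in NB salivary gland, 79.1 CPM in NB colon, 49.3 CPM in NB ileum, 11.9 CPM in liver and 6.03 CPM in NB cecum, and in AD 99.2 CPM in colon, 96.3 CPM in cecum, 67.7 CPM in duodenum and 20.6 CPM in jejunum. The salivary level was apart from all others. The cecum was called 16.0-fold higher in AD (7.23 to 44.0), a comparison with the NB class whose B cell markers were low, and the colon ratio of 1.26 (1.03 to 1.53) was not called.

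*CXCR5* was also carried by other lymphocyte classes. *CD3E* barcodes had 22.9 CPM in AD duodenum, 13.1 CPM in NB ileum (5 UMIs) and at most 8.63 CPM elsewhere. In AD it sat almost wholly in *CD4* barcodes without *CD8A*, at 39.1 CPM in duodenum, 53.2 CPM in cecum, 26.5 CPM in colon and 8.08 CPM in jejunum, against 0.44 to 0.97 CPM in *CD8A* barcodes without *CD4*. Helper T cells of follicles are known to carry the receptor.

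*MZB1* barcodes showed *CXCR5* in NB and hardly in AD: 111 CPM in ileum, 75.5 CPM in colon and 31.2 CPM in cecum at NB, against 8.71 CPM in cecum, 1.22 CPM in duodenum and 0 UMIs in jejunum and colon at AD. It was called lower in AD by 3.58-fold in cecum and, as a guide and not a bound, 31.8-fold in colon. The B cell markers moved the same way in these barcodes, from 428 to 1553 CPM in NB to 102 to 173 CPM in AD, and plasma cell genes the other way, from 18911 to 57845 CPM to 138314 to 185927 CPM. Their part in the difference was not tested, and the cecum call did not hold. It was lost without genes above 1% of UMIs (39.7 CPM in NB and 22.1 CPM in AD), with TMM scaling (23.3 and 12.4 CPM) and with median-of-ratios scaling (23.5 and 12.8 CPM), and with every barcode that held the marker AD was the higher, at 24.8 CPM against 21.3 CPM in NB. *PAX5* (r = 0.91), a B cell transcription factor, *CD79B* (r = 0.90), part of the B cell receptor, and *FCRLA* (r = 0.90) were most like *CXCR5*.

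*CCL21*, the ligand of CCR7 known from lymphatic vessels, was the endothelial member. *PECAM1* barcodes had 3391 CPM in NB ileum, 2842 CPM in cecum, 1606 CPM in duodenum, 1586 CPM in abomasum, 1571 CPM in rectum, 1362 CPM in jejunum and 551 CPM in colon, with 49.1 CPM in reticulum, 39.8 CPM in omasum and 0 UMIs in the mixed *PECAM1* barcodes of liver. Duodenum, abomasum and rectum overlapped in that order, while ileum, cecum, jejunum and colon were each apart from the next NB level. The forestomach values came from 1 and 2 barcodes. By this level the glandular stomach lay within the range of the intestine and apart from the forestomach. Genes of lymphatic endothelium summed to 858 CPM in *PECAM1* barcodes of abomasum, and to 256 and 219 CPM in those of reticulum and omasum. The part of the lymphatic share in the contrast was not tested.

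The counts came from a minority of *PECAM1* barcodes, those with *PROX1* or *MMRN1*, both markers of lymphatic endothelium. In NB these barcodes had 14759 CPM in ileum, 9678 CPM in abomasum, 8306 CPM in rectum, 8187 CPM in cecum, 7019 CPM in duodenum and 6868 CPM in jejunum, while *PECAM1* barcodes without either marker had 4.82 to 13.8 CPM in the same libraries. They numbered 94 of 413 in ileum, 239 of 1397 in abomasum and 416 of 2734 in jejunum. Outside the classes, barcodes with *PROX1* or *MMRN1* held 95.2 to 100% of the unplaced *CCL21* UMIs in each library with at least 50 of them. Of the genes most like *CCL21*, *MMRN1* (r = 0.96), *FLT4* (r = 0.92) and *RELN* (r = 0.91), the first was used in this split and *FLT4* is a lymphatic growth factor receptor.

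For *CCL21* the stage comparison rested on mixed barcodes. AD jejunum had 548 CPM in *PECAM1* barcodes and was called 2.49-fold lower than NB, but among barcodes with a second endothelial marker, 40 of 111 at AD, the levels were 1659 CPM in AD and 1472 CPM in NB. AD duodenum had 0 UMIs in 74 *PECAM1* barcodes, lower than NB by 405-fold as a guide and not a bound. These are the barcodes with 176520 CPM of plasma cell genes. Barcodes with *PROX1* or *MMRN1* were 15 in AD jejunum and 15 in AD cecum, and they held 405 and 337 *CCL21* UMIs (3712 and 8392 CPM). The *PECAM1* classes of AD cecum and colon, with 29 and 32 barcodes, fell short of the limit.

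*CCL21* was also counted at lower levels in other NB classes, at 155 CPM in *CD3E* and 136 CPM in *COL1A2* barcodes of NB duodenum, 162 CPM in *COL1A2* barcodes of NB ileum and 104 CPM in epithelial barcodes of NB cecum. Among the AD libraries the corresponding *CD3E* and epithelial levels were 0 to 0.35 CPM in each tissue with a called difference. Of the 24 calls lower in AD, 5 were *CCL21* in epithelial or *CD3E* barcodes. *CCL21* of the *PECAM1* class was high in the same NB libraries, and the part of RNA from other cells in these calls was not tested.

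*CCR7*, the receptor that guides naive lymphocytes and mature dendritic cells into lymphoid tissue, was highest in the NB salivary library. There *CD3E* barcodes had 475 CPM (3993 UMIs in 846 of 1335 barcodes) and *MS4A1* barcodes 366 CPM, both apart from every other library. This library of a gland was lymphocyte-rich, with 1335 *CD3E* and 372 *MS4A1* barcodes but 17 epithelial barcodes among 2636 kept. Thinned to 1000 UMIs, 33.2% of its *CD3E* barcodes had a *CCR7* UMI, against 0 to 7.26% in the other 12 libraries with a *CD3E* level. In the same library *COL1A2* barcodes, which are not known to carry the receptor, stood at 26.3 CPM, with a *CCR7* UMI in 3 of 67 thinned barcodes (4.48%, 0.933 to 12.5) and in 13.2% unthinned against 63.4% of *CD3E* barcodes, at medians of 4932 and 5845 UMIs.

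In NB gut the *CD3E* level of *CCR7* was 87.5 CPM in colon, 76.2 CPM in rectum, 73.8 CPM in cecum, 57.4 CPM in ileum, 8.81 CPM in abomasum, 2.61 CPM in jejunum and 0 UMIs in the 62 barcodes of duodenum, and liver stood at 7.73 CPM. The ranges of NB small and large intestine did not overlap, although the interval of the ileum (36.0 to 86.9) overlapped that of each large intestinal library. AD levels were 28.0 CPM in duodenum, 4.55 CPM in jejunum, 3.92 CPM in cecum and 2.40 CPM in colon. *MS4A1* barcodes had 124 CPM in NB colon, 81.3 CPM in NB ileum and 27.1 CPM in NB cecum, the class with low B cell markers, and 42.3 CPM in AD cecum, 22.2 CPM in AD colon, 17.7 CPM in AD duodenum and 4.93 CPM in AD jejunum.

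*CCR7* was lower in AD in both T and B cell classes of the colon. In *CD3E* barcodes it was 18.9-fold lower in cecum (14.9 to 24.0) and 36.4-fold lower in colon (28.1 to 47.9), and in *MS4A1* barcodes 5.59-fold lower in colon (3.88 to 8.34). In *CD3E* barcodes of duodenum it was called higher in AD, 630 UMIs against 0, with 2.47-fold as a guide and not a bound. The *MS4A1* ratio of cecum, 1.56 against that doubtful NB class, was not called. *MZB1* barcodes had 40.5 and 39.1 CPM in NB cecum and colon. They were called lower in AD by 16.3-fold (4.21 to 139, with 2 UMIs in AD) in cecum and, as a guide, 16.4-fold in colon. These are the barcodes in which B cell markers were lower and plasma cell genes higher in AD, as given for *CXCR5*, and in which the median log2 difference over all genes was −0.95 and −0.86, and the part of either was not tested.

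Within *CD3E* barcodes *CCR7* was higher in *CD4* than in *CD8A* barcodes in each of the 9 libraries with at least 50 of both. Barcodes with *CD4* alone and *CD8A* alone had 664 and 464 CPM in salivary gland, 203 and 113 CPM in NB colon, 163 and 21.3 CPM in NB cecum, 96.0 and 42.2 CPM in NB rectum and 44.4 and 6.04 CPM in liver. In AD the values were 36.1 and 11.3 CPM in duodenum, 16.4 and 1.32 CPM in cecum, 8.97 and 0.47 CPM in colon and 6.11 and 2.52 CPM in jejunum.

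*CCR7* overlapped with *CXCR5* in *MS4A1* barcodes of most libraries. In NB ileum 241 of 674 *CXCR5* barcodes held *CCR7* (35.8% against 15.1% of the others, at medians of 4442.5 and 4233 UMIs), in NB colon 107 of 246 (43.5% against 18.8%, at medians of 5482 and 4338 UMIs, so the *CXCR5* barcodes were deeper), and in AD jejunum 1 of 36. Among *CD3E* barcodes of AD duodenum, 3.22% of *CCR9* barcodes held *CCR7* against 9.56% of the others, at medians of 3704 and 3215 UMIs. The other AD libraries did not share that order, with 2.30 against 0.93% in jejunum, 1.05 against 1.03% in cecum and 2.19 against 0.77% in colon. Their *CCR9* barcodes were also the deeper ones. NB libraries went both ways, and in salivary gland the figures were 88.4 and 59.2%, at medians of 6554.5 and 5702 UMIs. Outside the classes, barcodes with the dendritic cell marker *FLT3* held 347 of 415 unplaced *CCR7* UMIs in AD jejunum, 533 of 1234 in NB cecum and 795 of 2551 in NB rectum. *CXCR4* (r = 0.78), *IL21R* (r = 0.76) and *COQ10B* (r = 0.76) were most like *CCR7*.

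**Figure D5:**
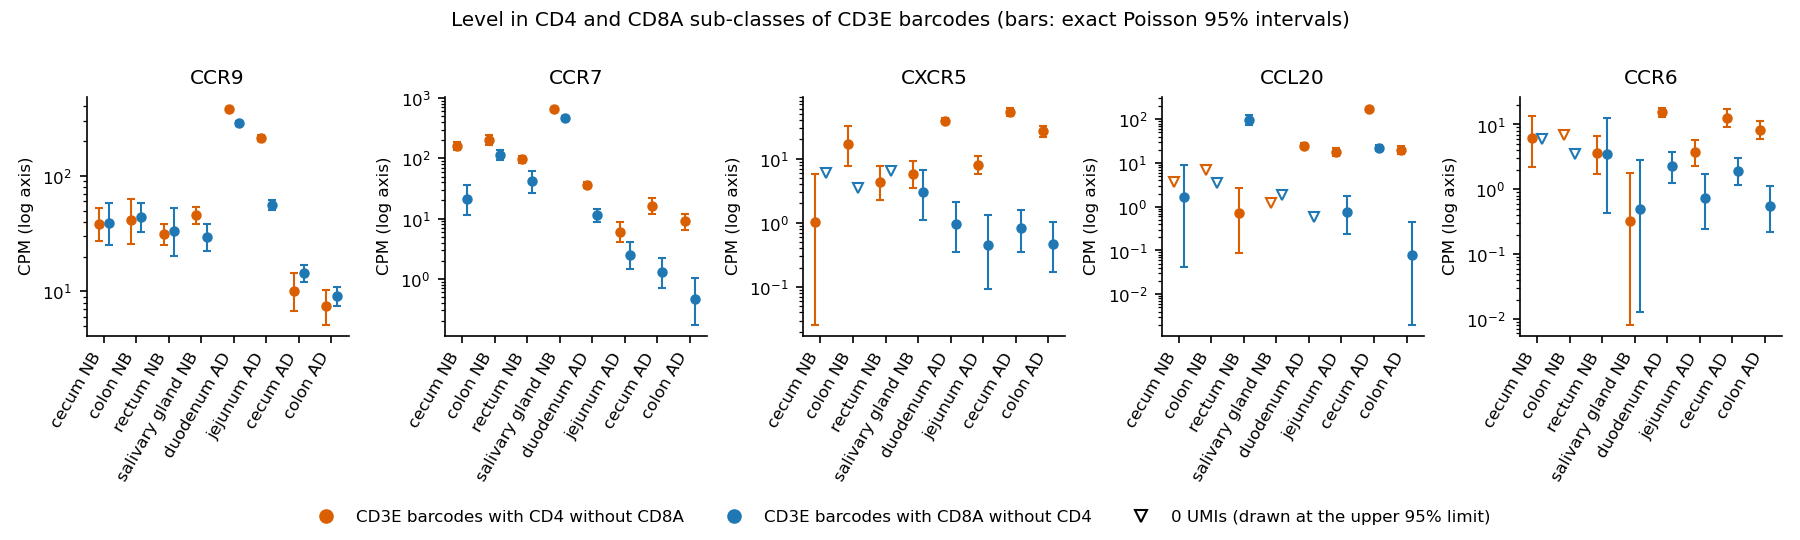
CPM (log axis) of 5 members in *CD3E* barcodes with *CD4* and no *CD8A* (orange) or *CD8A* and no *CD4* (blue), by library, with exact Poisson 95% intervals and open triangles at the upper limit where there were 0 UMIs. In the 4 AD libraries *CXCR5* and *CCR7* lie higher in *CD4* barcodes, and *CCR9* lies high in both divisions of AD duodenum.

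Beside the 10 members, 3 lists of related genes were read in the same way. Of 27 other chemokines 26 were measured, and 10 were highest in *PECAM1*, 10 in *COL1A2*, 4 in *CD3E*, 1 in epithelial and 1 in *MS4A1* barcodes. The highest single levels were *CCL5*, a chemokine of cytotoxic lymphocytes, at 10248 CPM in *CD3E* barcodes of AD cecum, *CXCL14* at 7210 CPM in *COL1A2* barcodes of AD colon, *CCL11*, a chemokine of eosinophils, at 4720 CPM in *COL1A2* barcodes of NB jejunum, and *CXCL3* at 3165 CPM in *PECAM1* barcodes of reticulum. In *COL1A2* barcodes of colon 12 of 15 listed chemokines with at least 10 CPM were higher in AD and 1 lower, where 15.2% of all genes were called, with a median log2 difference of 1.57 where the median over all genes was 0.07. *CXCL13* was thus on the other side from most of that list. The 12 included *CCL4* and *CCL5*, whose leading class was *CD3E*, and the part of T cell RNA in these calls was not tested.

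Of 19 other chemokine receptors, 7 were highest in *CD3E*, 5 in *PECAM1* and 3 in *MS4A1* barcodes. For *CXCR2*, *CCR3*, *CCR8*, *CXCR1*, *CCR2* and *XCR1* the mean in the highest class was only 0.026 to 0.68 CPM, so their class is uncertain. No class was formed for myeloid cells. In *CD3E* barcodes 2 of 5 tested were higher and 1 lower in AD duodenum (21.5% of all genes were called), 4 of 5 higher and 1 lower in jejunum (21.7%), 4 of 7 higher and 2 lower in cecum (28.7%), and 4 of 6 higher and 1 lower in colon (28.5%). The highest levels were *CXCR4* at 3331 CPM in *MS4A1* barcodes of salivary gland, *ACKR1* at 791 CPM in *PECAM1* barcodes of NB rectum and *CXCR6* at 351 CPM in *CD3E* barcodes of AD jejunum. *GPR15*, a receptor that directs T cells to the large intestine, was picked out after values were seen: *CD3E* barcodes had 83.3 CPM in AD cecum, 75.5 CPM in AD colon, 12.5 CPM in AD jejunum and 2.53 CPM in AD duodenum, and 0 to 2.21 CPM in NB. Over the 4 AD tissues that order ran opposite to the *CCR9* order except that cecum stood above colon for both.

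Of 15 genes that organise lymphoid tissue, 8 were highest in *MS4A1* and 4 in *COL1A2* barcodes. The highest levels were *IL7R* at 1062 CPM in *CD3E* barcodes of AD duodenum, *LTB* at 908 CPM in *MS4A1* barcodes of salivary gland, *TNFRSF1A* at 441 CPM in *PECAM1* barcodes of NB rectum and *CR2*, the complement receptor of B cells and follicular dendritic cells, at 347 CPM in *MS4A1* barcodes of salivary gland. In *CD3E* barcodes of colon 1 of 8 tested was higher in AD and 2 were lower, where 28.5% of all genes were called, and in *COL1A2* barcodes of colon 2 of 7 were higher and 1 lower, where 15.2% were.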

How the data were processed

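Expression was read from 15 droplet libraries. The deposited files held raw UMI counts per gene and barcode, which the authors made with Cell Ranger 3.1.0 on the ARS-UCD1.2 cattle genome from 10x 3′ libraries, with the annotation release not given in the sources used here. The study's own Seurat annotation was not used here, so classes were rebuilt from markers and may hold other cells than the study's types. Each library had 1 sample, and libraries held 17707625 to 129458578 UMIs.

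A barcode was kept where it had 500 to 4000 genes, fewer than 50000 UMIs and a mitochondrial share (13 genes) below 40%. Doublets were scored against simulated pairs by a nearest-neighbour score, and the highest-scoring 0.8% was removed for each 1000 barcodes of a library. UMIs were then summed per class and library, and levels, exact Poisson intervals, exact conditional binomial intervals of ratios, calls (2-fold, separate intervals, at least 10 CPM) and shares after thinning to 1000 UMIs (left-out barcodes had fewer) were computed. A fold against 0 UMIs was taken against 3 counts in that library, with the other library at its point level. The exact upper limit of 0 UMIs lies above 3 counts, so such a fold is a guide and not a bound. Intervals cover counting error only. The calling and interval code was tested on simulated data.

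Named genes were the 10 members, class markers, up to 4 examples of each list by highest CPM, and for each member the 3 genes of highest Pearson correlation over 65 combinations, among genes with at least 10 CPM in at least 3. The members and lists were chosen with earlier results of these data known. Alternatives were a marker minimum of 2 UMIs, every barcode with the marker, *PTPRC* allowed, doublets left in, under 20% mitochondrial UMIs, no upper limit on genes or UMIs, no genes above 1% of UMIs, TMM and median-of-ratios scaling, a 4-fold call, no filter on low values, at least 20 barcodes, other thinning depths and other correlations. A second class marker and the removal of doubtful combinations were added after the data were seen. Python 3.11.15, NumPy 2.4.6, SciPy 1.17.1, pandas 2.3.3, scikit-learn 1.9.0, matplotlib 3.10.9, R 4.3.3 and edgeR 4.0.16 (TMM factors only) were used.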

Additional observations from a re-analysis of the deposited data

Results flagged for a closer look

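*CCR9* in *CD3E* barcodes differed between AD and NB in opposite directions in the small and the large intestine. The ratio of AD to NB was 5.50 for duodenum, 8.65 for jejunum, 0.555 for cecum and 0.145 for colon, with 1 library at each stage of each tissue. The difference between tissues was not tested.

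All 10 members had more than 3 UMIs, in at least 1 library, among the barcodes that the filters removed. These barcodes held 57.0% of all *CCL28* UMIs (1217), 46.0% of *CCL20* (5750), 45.8% of *CCL25* (42394), 30.7% of *CCR10* (1292), 27.8% of *CCL21* (53804) and 23.5% of *CXCL13* (1398). For *CCR6* (368 UMIs), *CXCR5* (935), *CCR9* (2656) and *CCR7* (3070) the shares were 14.4 to 18.4%. By share the 3 epithelial chemokines lost the most, and by count *CCL21* did. With 1 library a group, no library could be tested as standing apart from its group.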

How the results depend on the processing

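No stage difference called under the settings of the report was called in the other direction under an alternative. The direction of the values did turn, without a call, for *CXCR5* in *MZB1* barcodes of cecum with every barcode that held the marker (24.8 CPM in AD and 21.3 CPM in NB) and, in *PECAM1* barcodes of jejunum with at least 2 UMIs of the marker (43 AD barcodes), for *CCL21* (1018 and 992 CPM), *CCR9* and *CCR7* (each 0 and 0.48 CPM). With a second marker these 3 turned in jejunum too (*CCL21* 1659 and 1472 CPM, *CCR9* 0 and 0.37 CPM, *CCR7* 0 and 0.44 CPM; 40 AD barcodes), as did *CCR9* in duodenum (0 and 0.14 CPM; 3 AD barcodes), and the cause was not tested. Under the settings of the report 46 member and class pairs were tested, and 12 were called higher in AD. This count became 7 with at least 2 UMIs of the class marker and 30 with every barcode that held the marker. It became 19 with no filter on low values, 20 with at least 20 barcodes, 4 with a second marker and 6 without the doubtful combinations. The count of pairs called lower, 24, ran from 18 to 34 over the same settings. The number of pairs tested changed with some of these settings. Neither that number nor the share of all genes called is given for them, so the counts cannot be read as gains or losses among the 46. Among the main classes of each member, small and large NB intestine were apart for *CCL25* in epithelial and *CCR7* in *CD3E* barcodes. These 2 pairs became 1 with a second marker and 3 with no upper limit on genes or UMIs. Scaling moved 4 of 44 log2 stage differences with TMM and 4 with median-of-ratios factors, and leaving out genes above 1% of UMIs moved 8. Doublets left in moved 3. Thinning to 500 or 2000 UMIs moved 56 and 50 of 117 shares, so those shares hold for 1000 UMIs only.

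No paired analysis was possible because each tissue and stage had 1 library, and for the same reason no replicate could be left out. Depth limits *CCL28* and *CCR6*, whose neighbouring levels overlapped, and the NB duodenum and jejunum values in *CD3E* barcodes, which rest on 62 and 186 barcodes.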

Other observations

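*CCL19*, the other chemokine that CCR7 binds, was a stromal gene in these libraries and was singled out after its values were seen. *COL1A2* barcodes had 675 CPM of *CCL19* in AD colon and 251 CPM in NB colon, a difference called higher in AD, and 184 CPM in NB ileum, 153 CPM in NB rectum, 51.9 CPM in NB cecum, 28.1 CPM in NB jejunum and 2.51 CPM in NB duodenum. *CXCL13* in the same barcodes of colon was lower in AD.

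Calls among the other chemokines are given beside the share of all genes called. In *CD3E* barcodes 4 of 5 tested were higher in AD colon and 0 lower (28.5% of all genes called), 6 of 17 higher and 9 lower in jejunum (21.7%), 4 of 11 higher and 6 lower in cecum (28.7%), and 2 of 7 higher and 3 lower in duodenum (21.5%). In epithelial barcodes of cecum 2 of 11 were higher and 9 lower (19.5%), and in *MS4A1* barcodes of cecum, the doubtful NB class, 1 of 13 was higher and 10 lower (36.9%).

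With Spearman's rank correlation in place of Pearson's, the gene most like *CCL25* was again *OTC* (rho = 0.73) and that most like *CCL21* again *MMRN1* (rho = 0.90). *CCR10* was closest to *TNFRSF17* (rho = 0.89) and *CCR6* to *CYFIP2* (rho = 0.82), each among the Pearson 3 of its gene. For *CCL28* (the unnamed gene ENSBTAG00000011713, rho = 0.78), *CCR9* (*TRPM2*, rho = 0.77), *CCL20* (*PDZD3*, rho = 0.75), *CXCL13* (*MTERF4*, rho = 0.61), *CXCR5* (*FCHO1*, rho = 0.79) and *CCR7* (*NAPSA*, rho = 0.79) the closest gene was another, so those likenesses rest on the measure used.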
